A study of Homo sapiens with 6 samples.

Results

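The genes of cholesterol and fatty acid synthesis that are placed under the sterol regulatory element-binding proteins (SREBPs) were examined in C4-2 cells, a castration-resistant human prostate cancer cell line derived from LNCaP. The members were taken by symbol from a list of 42 symbols of these pathways. Of these, 41 were found among the 55765 gene symbols counted, since SC5DL is an older symbol of SC5D, and all 41 were abundant enough to be tested. They comprise 5 regulators, 17 enzymes of the sterol branch, 15 enzymes of the fatty acid branch, 3 genes of sterol movement and storage, and the phosphatidate phosphatase gene LPIN1. The cells, grown in DMEM with 5% FBS, were treated for 72 h either with the solvent DMSO or with 1 nM of the synthetic androgen R1881 (methyltrienolone), a supraphysiological androgen level (SAL). RNA sequencing gave 3 DMSO and 3 SAL libraries, numbered 1 to 3 in each group. Each group is thus a single cell line, which is known to carry a mutated androgen receptor, and the LNCaP libraries were not analysed here.

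SREBPs are made as precursors in the membrane of the endoplasmic reticulum, where the escort protein SCAP senses sterol and the INSIG proteins retain the complex. When sterol is low, SCAP carries the precursor to the Golgi apparatus, where proteases release the transcription factor. SREBF2 encodes the form best known for sterol genes, and SREBF1 the forms best known for fatty acid genes. Both pathways start from acetyl-CoA, and in prostate cancer cells androgens are known to raise lipid synthesis, with FASN as a long-known androgen-induced gene.

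Without rRNA, between 6931042 and 9776990 reads were counted on genes per library. Reads outside the annotated exons, introns included, took from 30.1% to 48.3% of the mapped-read tallies in the DMSO libraries. In the SAL libraries they took from 24.0% to 43.3%. The highest share was in replicate 3 of each group, and the part of these reads in the changes below was not tested. The known androgen-induced gene KLK3 was higher in SAL in all 3 same-numbered pairs, by 1.33, 1.08 and 1.20 on the log2 scale. The 9 luminal prostate markers summed to between 2735 and 5225 CPM (counts scaled to a common, TMM-adjusted library size) in DMSO and between 5006 and 10253 CPM in SAL. KRT5, COL1A2, PTPRC and ADIPOQ, which mark basal, stromal, blood and fat cells, had no count in any library, and the summed adipocyte markers reached at most 1.10 CPM. The 6 markers of stroma, endothelium and blood summed to between 2.60 and 14.1 CPM in DMSO and between 2.95 and 13.8 CPM in SAL, with COL1A1 at up to 10.3 CPM and VWF at up to 3.84 CPM. In bulk RNA, a change in the number of cells that express a gene and a change in its RNA per cell cannot be told apart.

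Lipid synthesis genes were mostly higher in SAL. Of the 41 members, 23 rose (56.1%) and 3 fell, at an adjusted p under 0.05 in edgeR's quasi-likelihood test with the replicate number as a block and Benjamini-Hochberg adjustment over all 16835 genes tested. Among all genes tested, 11.5% rose, 9.37% fell and 20.8% did either by the same rule. When the log2 fold change also had to reach 0.5, 18 members rose and 3 fell, against 7.72% and 6.29% of all genes. The median log2 fold change of the members was 0.38, with 35 of the 41 above 0, against -0.0011 over all genes. Of the 26 members that changed, 25 did so in the same direction in all 3 pairs, the exception being ABCA1. Over all genes, only 26 of the 3508 that passed lacked such agreement. The test itself uses the differences within pairs, so this agreement is no separate support for the calls. Without the replicate block no member passed the threshold, by edgeR (0.107% of all genes rose so), although 6 had an unadjusted p under 0.05 and the median was 0.37. With DESeq2 and the block, 1290 of all 16835 genes rose (7.66%) and 2240 passed in either direction. Of the members, 20 rose and 1 fell. Without replicate 3, 13 rose and 1 fell, but fewer genes passed over all genes too. There, 750 of 16992 rose, against 1931 of 16835 with all replicates, and 1233 passed in either direction, against 3508.

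**Figure D1:**
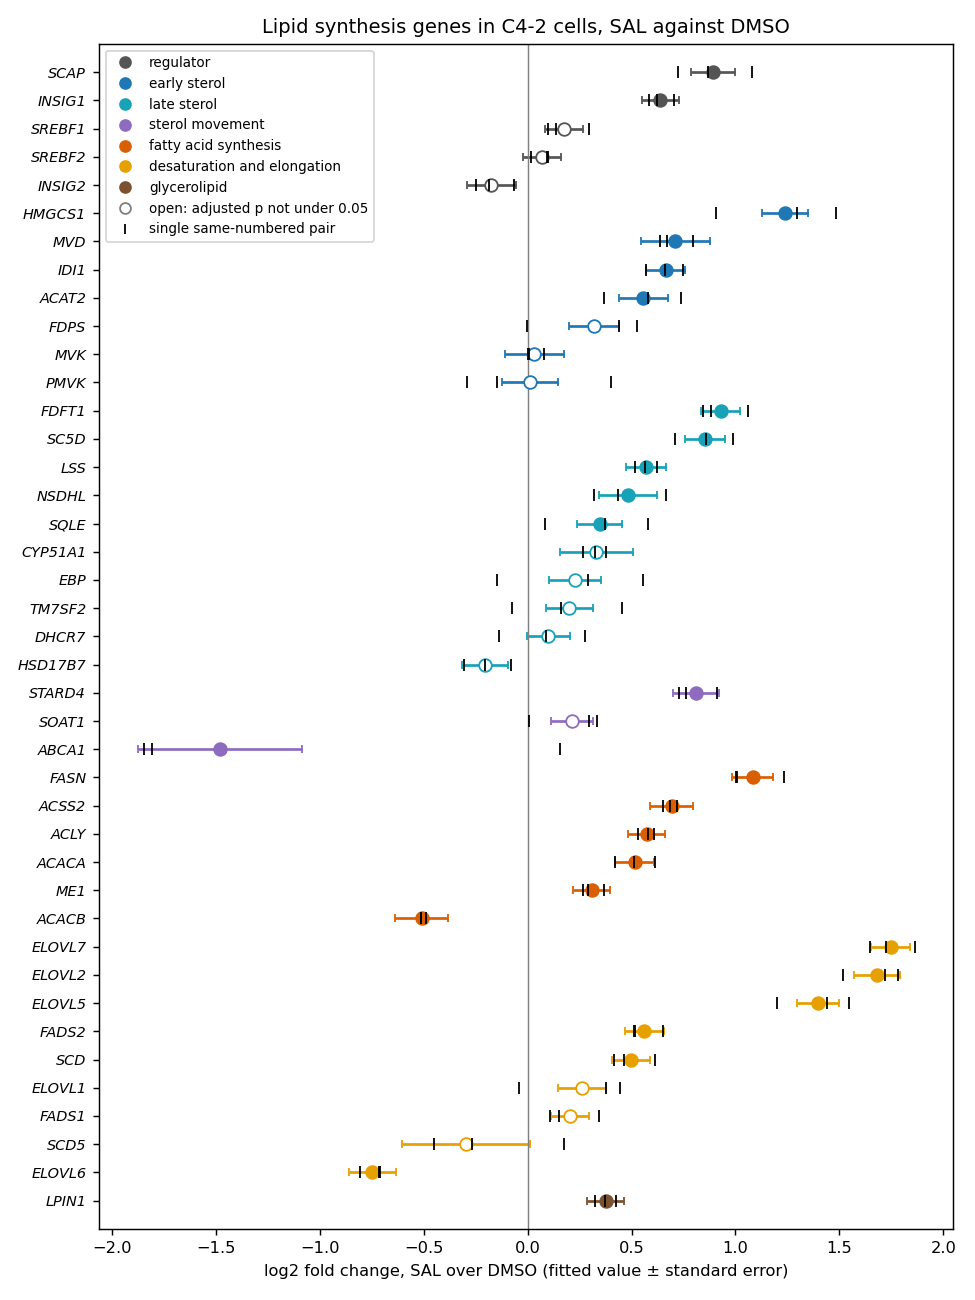
Log2 fold change of SAL over DMSO (x axis) for the 41 members (y axis), grouped by role, with the fitted value and its standard error as circles and bars, and the 3 same-numbered pairs as vertical ticks. Filled circles mark the 26 genes with an adjusted p under 0.05, of which 23 lie above 0 and ABCA1, ELOVL6 and ACACB below it.

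The levels differed more between replicate numbers than between treatments for many members. In the DMSO libraries alone, the highest CPM was over 2 times the lowest for 25 of the 41 members, from 1.11 times for ME1 to 6.16 times for FASN and 6.90 times for SCD5. Only 7 members had every SAL library above every DMSO library, and 1 had every SAL library below. Across all genes tested, such a separation was seen for 3.78% upwards and 3.73% downwards. The exact two-sided permutation test over the 6 libraries gives these genes p = 0.1, the smallest value that 3 libraries against 3 allow, so the calls rest on the differences within pairs.

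The difference between replicates 2 and 1 went with base composition. Over the 41 members, the GC content of the exons, which ran from 34.6% for STARD4 to 65.2% for FASN, correlated with the difference in log2 CPM between DMSO replicates 2 and 1 with Pearson's r = 0.71 and Spearman's rho = 0.72. For replicates 3 and 1 the values were r = 0.50 and rho = 0.52, and over 14138 genes tested r was 0.58 for replicates 2 and 1, so the trend was not particular to the members. The GC content and the log2 fold change of SAL over DMSO had r = -0.11 and rho = -0.14 over the 41 members. Over the 14138 genes they had r = 0.083 and rho = 0.12. These are descriptions across genes that share the same libraries, and genes are not independent replicates. When the fit with the block also corrected for GC content and length, an alternative chosen after the data had been seen, 23 members rose and 3 fell. Over all 16835 genes, 1993 rose and 3978 passed in either direction with this correction.

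**Figure D2:**
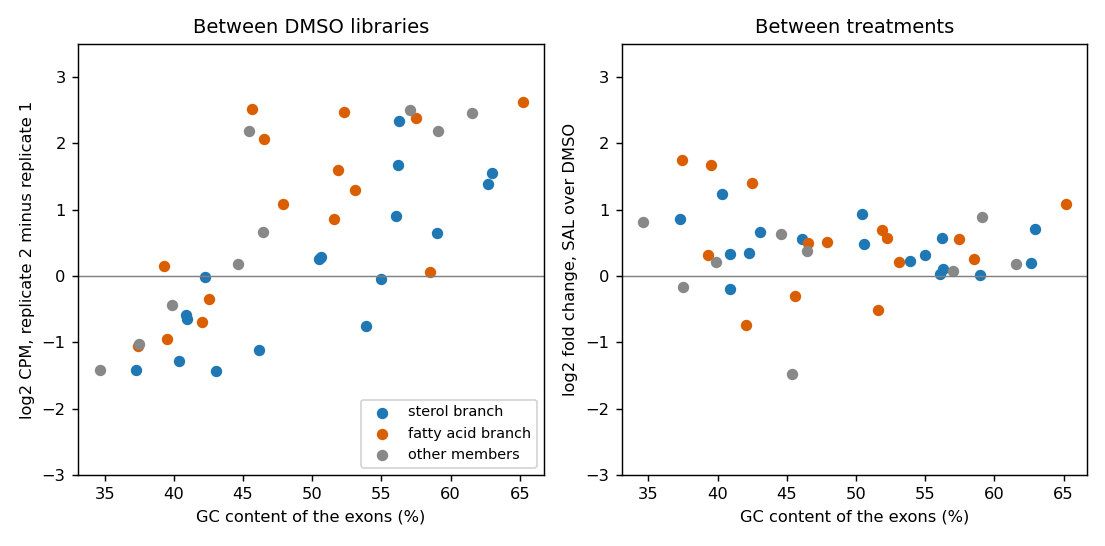
Each point is 1 of the 41 members, placed by the GC content of its exons (x axis, percent). The y axis gives the difference in log2 CPM between DMSO replicates 2 and 1 in the left panel (Pearson's r = 0.71) and the log2 fold change of SAL over DMSO in the right panel (r = -0.11), and colours mark the branches.

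The promoter windows of RefSeq (GRCh38.p14, 250 bases before to 50 after the transcription start) were searched for short motifs on both strands. Windows were matched by symbol for 37 of the 41 members, all but ACAT2, FASN, FDFT1 and SQLE. CCAAT, the box bound by the SREBP partner NF-Y, was found in 25 of the 37 (67.6%), in 12 of 14 sterol and 9 of 14 fatty acid genes, against 39.7% of 27305 genes in the whole table. It was found in 14 of 19 members that rose and in 10 of 15 that did not pass the threshold. CACGTG, an E-box, was found in 6 of the 37 (16.2%), against 8.77% of all genes. It was found in 5 of the 19 members that rose (ELOVL5, INSIG1, LSS, SC5D and SCAP) and in 1 of the 3 that fell (ABCA1). None of the 15 that did not pass the threshold had it. A link of either motif to the changes was not tested. TCACNCCAC, a form of the sterol regulatory element, was found in 1 of the 37 windows, that of SREBF2 with TCACCCCAC, against 1.39% of all genes. The full palindromic androgen response element, AGAACA and TGTTCT with NNN between them, was found in none of the 37 and in 1 of the 27305 genes. These are matches of letters in short windows, and they say nothing of distant elements or of binding.

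The 250 bases before the start are shown for 4 members that rose, as examples of windows with the CCAAT box in both branches and with or without an E-box. Capitals mark CCAAT (here ATTGG, its reverse complement) and CACGTG, and each run is read 5′ to 3′ on the strand of the gene, in GRCh38. They lie at chr5:43313413-43313662 (minus strand), chr7:155297628-155297877 (plus strand), chr11:121292521-121292770 (plus strand) and chr6:53348951-53349200 (minus strand).
HMGCS1: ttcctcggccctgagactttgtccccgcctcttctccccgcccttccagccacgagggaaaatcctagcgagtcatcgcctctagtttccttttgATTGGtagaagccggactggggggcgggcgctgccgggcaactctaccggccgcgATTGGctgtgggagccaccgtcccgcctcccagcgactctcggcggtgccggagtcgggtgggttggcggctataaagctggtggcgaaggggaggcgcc
INSIG1: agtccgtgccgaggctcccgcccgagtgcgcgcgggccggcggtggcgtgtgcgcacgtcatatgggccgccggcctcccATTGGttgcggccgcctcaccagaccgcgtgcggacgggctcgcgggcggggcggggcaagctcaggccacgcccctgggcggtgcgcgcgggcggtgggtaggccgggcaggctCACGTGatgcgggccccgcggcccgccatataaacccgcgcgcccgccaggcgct
SC5D: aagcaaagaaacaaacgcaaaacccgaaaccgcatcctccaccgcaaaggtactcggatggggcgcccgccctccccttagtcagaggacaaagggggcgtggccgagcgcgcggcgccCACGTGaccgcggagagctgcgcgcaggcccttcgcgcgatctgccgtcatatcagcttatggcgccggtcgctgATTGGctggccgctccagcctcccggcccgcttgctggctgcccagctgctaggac
ELOVL5: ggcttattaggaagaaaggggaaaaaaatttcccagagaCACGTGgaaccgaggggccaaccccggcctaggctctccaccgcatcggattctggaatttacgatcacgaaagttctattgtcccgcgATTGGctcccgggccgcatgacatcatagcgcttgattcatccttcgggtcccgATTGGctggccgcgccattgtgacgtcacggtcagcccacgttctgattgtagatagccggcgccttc
The window of HMGCS1 has 2 CCAAT boxes and no E-box. That of INSIG1 has 1 of each, and that of SC5D has the E-box before the CCAAT box. In ELOVL5, 1 E-box precedes 2 CCAAT boxes.

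The genes of the transcription factors themselves showed no change past the threshold. SREBF1 (chromosome 17, 17713713 to 17740316 in GRCh37) was measured at 114, 632 and 325 CPM in replicates 1, 2 and 3 with DMSO, and at 126, 677 and 399 CPM with SAL. Its log2 fold change was 0.18 (standard error 0.09, edgeR's adjusted p = 0.198). SREBF2 (chromosome 22, 42229109 to 42303310) had 86.6, 493 and 263 CPM in DMSO and 92.3, 527 and 266 CPM in SAL, a log2 fold change of 0.069 (standard error 0.09, edgeR's adjusted p = 0.647). In both genes the libraries stood in the same order in each group, replicate 1 lowest and replicate 2 highest, and the groups overlapped. The proteolytic release of the factors, on which their activity depends, is not measured by RNA counts.

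The escort protein gene and one of the retention genes rose. SCAP had 23.5, 108 and 56.1 CPM in DMSO and 43.2, 178 and 119 CPM in SAL. Each SAL library was above its same-numbered DMSO library, with a log2 fold change of 0.89 (standard error 0.10, edgeR's adjusted p = 1.66e-05). INSIG1, which retains the SCAP complex and is itself an SREBP target, had 313, 357 and 350 CPM in DMSO and 483, 582 and 526 CPM in SAL. Its groups did not overlap, and the replicates lay close together, with a log2 fold change of 0.64 (standard error 0.09) and 0.62, 0.70 and 0.58 in the 3 pairs. INSIG2, the other retention gene, had 44.4, 21.6 and 34.2 CPM in DMSO and 37.3, 20.6 and 30.1 CPM in SAL, a log2 fold change of -0.17 (edgeR's adjusted p = 0.339).

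**Figure D3:**
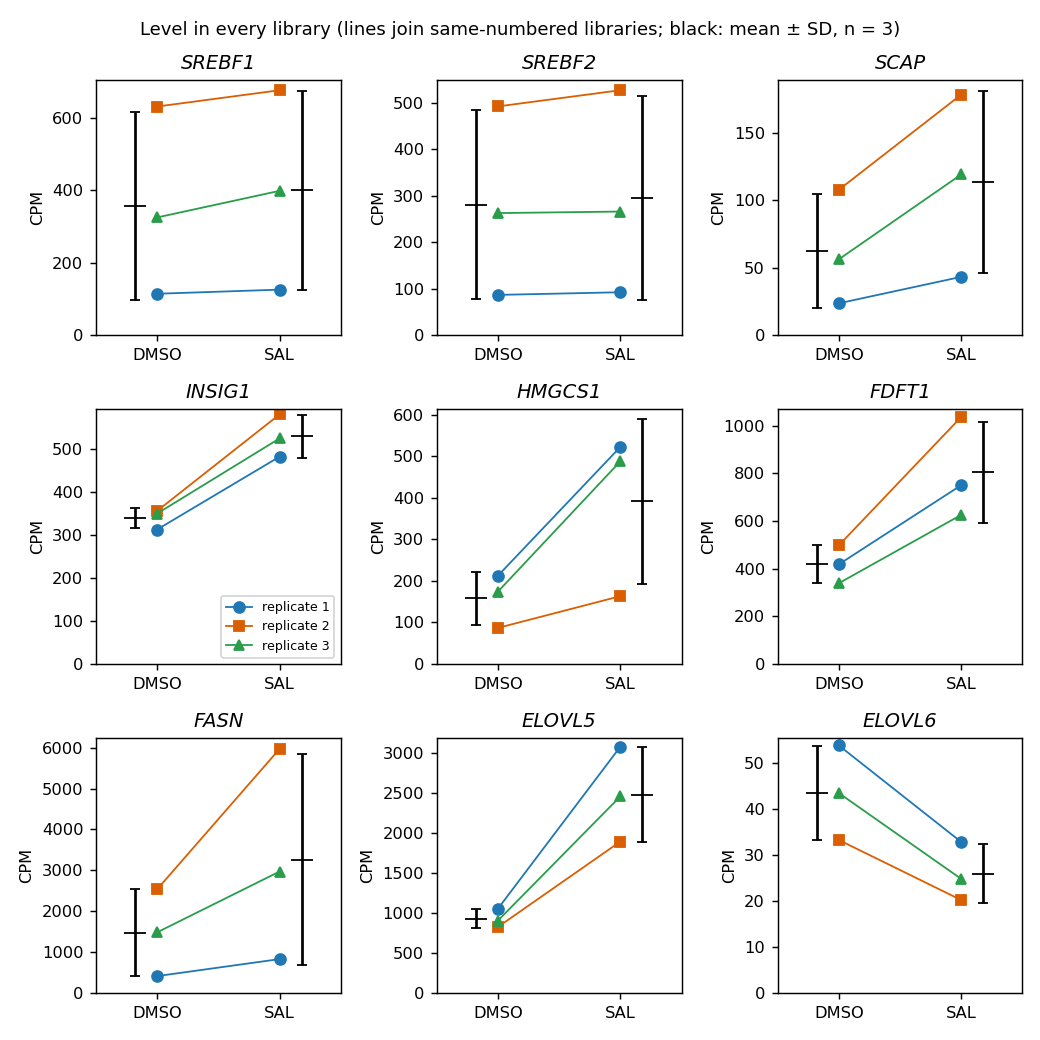
Level in CPM (y axis, starting at 0) of 9 members in the DMSO and SAL libraries (x axis), with lines that join same-numbered libraries and black bars for the mean ± SD of 3 libraries. INSIG1, FDFT1 and ELOVL5 lie higher in every SAL library than in any DMSO library and ELOVL6 lower, whereas the levels of SREBF1, SREBF2, SCAP, HMGCS1 and FASN overlap between the groups.

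In the early sterol pathway, from acetyl-CoA to farnesyl diphosphate, 4 of 7 genes rose and none fell. HMGCS1 encodes the cytosolic synthase that makes HMG-CoA. It had 213, 87.0 and 174 CPM in DMSO and 523, 163 and 488 CPM in SAL. Replicate 2 was the lowest library of each group, and each SAL library was about 2 to 3 times its DMSO partner, with log2 differences of 1.30, 0.91 and 1.48. The fitted log2 fold change was 1.24 (standard error 0.11, edgeR's adjusted p = 1.47e-06), the largest of the sterol branch. In the newer annotation used here, 37.7% of the exon bases of HMGCS1 are shared with a gene on the other strand, which the unstranded counting could not separate.

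IDI1, the isomerase of isopentenyl diphosphate, had 125, 46.2 and 89.4 CPM in DMSO and 211, 68.7 and 141 CPM in SAL, a log2 fold change of 0.66 (standard error 0.09). MVD, the decarboxylase before it, was low in all libraries, with 5.45, 16.4 and 7.35 CPM in DMSO and 8.84, 25.7 and 12.9 CPM in SAL. The groups of both genes overlapped while all 3 pairs rose, in MVD by 0.67, 0.64 and 0.80. ACAT2, the cytosolic thiolase at the start of the pathway, had 45.6, 20.9 and 25.3 CPM in DMSO and 58.9, 31.4 and 42.3 CPM in SAL, a log2 fold change of 0.56 (edgeR's adjusted p = 0.00312), and 22.2% of its exon bases overlap genes on the other strand. MVD and ACAT2 passed the threshold only with replicate 3 included (edgeR's adjusted p = 0.109 and adjusted p = 0.128 without it). The kinase genes MVK and PMVK had log2 fold changes of 0.033 and 0.012, and that of PMVK was -0.29, 0.40 and -0.15 in the 3 pairs. FDPS, the farnesyl diphosphate synthase, had a log2 fold change of 0.32 (edgeR's adjusted p = 0.0724), with -0.0045 in pair 1 and 0.52 and 0.44 in the other pairs.

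From squalene to cholesterol, 5 of 10 genes rose and none fell. FDFT1, the squalene synthase and the first enzyme committed to sterols, had 418, 498 and 339 CPM in DMSO and 751, 1037 and 626 CPM in SAL. Every SAL library lay above every DMSO library, and the log2 fold change was 0.93 (standard error 0.09, edgeR's adjusted p = 3.57e-06). SC5D, a desaturase of the last steps, had 172, 64.1 and 141 CPM in DMSO and 343, 116 and 231 CPM in SAL, a log2 fold change of 0.86 (standard error 0.10). LSS, the lanosterol synthase, rose from 27.6, 89.2 and 70.3 CPM to 41.0, 138 and 101 CPM, with nearly equal log2 differences of 0.56, 0.62 and 0.52 in the 3 pairs. FDFT1, SC5D and LSS rose in each of the 3 pairs and passed the threshold without any one replicate.

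The squalene epoxidase gene SQLE, a rate-limiting step after squalene synthase, had 66.8, 65.9 and 73.8 CPM in DMSO and 70.7, 98.5 and 95.5 CPM in SAL. Pair 1 hardly differed, at 0.08 on the log2 scale, and the log2 fold change of 0.35 (standard error 0.11, edgeR's adjusted p = 0.0320) did not pass in DESeq2 (adjusted p = 0.128). Nor did it pass in edgeR on leaving out replicate 2 (0.21, adjusted p = 0.242) or replicate 3 (adjusted p = 0.319). NSDHL, which removes the methyl groups of lanosterol derivatives, had 16.4, 20.0 and 16.4 CPM in DMSO and 20.5, 31.8 and 22.3 CPM in SAL, with no overlap of the groups. Its log2 fold change of 0.49 (edgeR's adjusted p = 0.0216) likewise did not pass in DESeq2 (adjusted p = 0.116), or in edgeR on leaving out replicate 2 (adjusted p = 0.154) or replicate 3 (adjusted p = 0.170). The other 5 genes did not pass the threshold, with log2 fold changes of 0.33 for CYP51A1, 0.23 for EBP, 0.20 for TM7SF2, 0.10 for DHCR7 and -0.20 for HSD17B7. EBP, TM7SF2 and DHCR7 were lower in SAL in pair 1 and higher in pairs 2 and 3. CYP51A1 had only 52 to 87 counts per DMSO library, and 74.1% of its exon bases are shared with other genes in the annotation used here, so its level is uncertain. EBP shares 36.4% of its exon bases with a gene on the same strand.

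Of the genes of sterol movement and storage, STARD4, a carrier of cholesterol between membranes and an SREBP target, had 43.9, 16.3 and 29.8 CPM in DMSO and 82.6, 27.1 and 50.6 CPM in SAL. It rose in all 3 pairs, with a log2 fold change of 0.81 (standard error 0.11, edgeR's adjusted p = 7.65e-05). ABCA1, the cholesterol efflux pump, was close to the lower limit of the data, with 1.24, 6.56 and 4.94 CPM in DMSO and 1.41, 1.64 and 1.23 CPM in SAL. It fell by 1.48 on the log2 scale (standard error 0.40, edgeR's adjusted p = 0.0154), but pair 1, with 10 and 11 counts, went the other way. This call was lost on leaving out replicate 2, leaving out replicate 3 and in DESeq2 with the block (adjusted p = 0.0835). SOAT1, which esterifies cholesterol for storage, had a log2 fold change of 0.22 (edgeR's adjusted p = 0.152).

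Of the 6 genes that make malonyl-CoA, palmitate and their precursors, 5 rose and 1 fell. FASN, the fatty acid synthase, had 411, 2536 and 1482 CPM in DMSO and 828, 5972 and 2971 CPM in SAL. The lowest SAL library, replicate 1, was below DMSO replicates 2 and 3 in this gene, yet each pair rose by at least 1.00 on the log2 scale. The log2 fold change was 1.08 (standard error 0.10, edgeR's adjusted p = 1.39e-06). FASN alone took 0.0406%, 0.260% and 0.160% of the counts without rRNA in the DMSO libraries and 0.0797%, 0.557% and 0.294% in the SAL libraries.

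ACSS2, which makes acetyl-CoA from acetate, had 19.2, 58.8 and 45.3 CPM in DMSO and 30.4, 97.0 and 72.9 CPM in SAL, a log2 fold change of 0.69 (standard error 0.10). ACLY, which makes it from citrate, had 127, 705 and 470 CPM in DMSO and 190, 1073 and 680 CPM in SAL, a log2 fold change of 0.57 (standard error 0.09). The 3 pairs of each of these genes were nearly equal, between 0.65 and 0.72 for ACSS2 and between 0.53 and 0.61 for ACLY. The acetyl-CoA carboxylase genes differed in direction. ACACA, the cytosolic form that feeds synthesis, had 393, 832 and 851 CPM in DMSO and 603, 1115 and 1212 CPM in SAL, a log2 fold change of 0.52 (standard error 0.09, edgeR's adjusted p = 0.000913). ACACB, the mitochondria-associated form known to restrain fatty acid oxidation, was much lower, with 18.6, 34.0 and 31.0 CPM in DMSO and 12.9, 23.8 and 22.1 CPM in SAL. It fell by 0.51 on the log2 scale (standard error 0.13, edgeR's adjusted p = 0.0103), by 0.51, 0.51 and 0.49 in the pairs, and missed the threshold in DESeq2 (adjusted p = 0.0552) and on leaving out replicate 3 (edgeR's adjusted p = 0.145). ME1, the cytosolic malic enzyme and a source of NADPH, rose by 0.31 on the log2 scale and varied least between replicates, from 233 to 260 CPM in DMSO and from 291 to 319 CPM in SAL. Its call was lost in DESeq2 (adjusted p = 0.0587). On leaving out replicate 3, ACLY, ACACA and ME1 did not pass either (edgeR's adjusted p = 0.0527, adjusted p = 0.106 and adjusted p = 0.306).

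Among the desaturases and elongases, 5 of 9 genes rose and 1 fell, and 3 elongases had the largest increases of all members. ELOVL7, an elongase of long-chain acyl groups, had 211, 101 and 158 CPM in DMSO and 768, 317 and 522 CPM in SAL. Every SAL library was above every DMSO library, and the log2 fold change was 1.75 (standard error 0.09, edgeR's adjusted p = 4.27e-09), a 3.36-fold difference. ELOVL2, an elongase of polyunsaturated fatty acids, had 30.2, 15.6 and 25 CPM in DMSO and 100, 54.3 and 72.1 CPM in SAL, a log2 fold change of 1.68 (standard error 0.11). ELOVL5, which also elongates polyunsaturated fatty acids, had 1054, 825 and 905 CPM in DMSO and 3083, 1895 and 2460 CPM in SAL, a log2 fold change of 1.40 (standard error 0.10, edgeR's adjusted p = 1.19e-07). In these 3 genes the groups were fully separated, and the smallest change of any pair was 1.20, for ELOVL5 in pair 2.

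ELOVL6, which elongates saturated chains such as palmitate, moved in the opposite direction. It had 53.8, 33.2 and 43.4 CPM in DMSO and 32.8, 20.2 and 24.8 CPM in SAL, with every SAL library below every DMSO library. It fell by 0.75 on the log2 scale (standard error 0.11, edgeR's adjusted p = 0.000202), by 0.71, 0.71 and 0.80 in the pairs. ELOVL1, the remaining elongase of the list, had a log2 fold change of 0.26 (edgeR's adjusted p = 0.131) and was higher in SAL in pairs 2 and 3 only. SCD, the stearoyl-CoA desaturase that makes oleate, had 233, 980 and 658 CPM in DMSO and 357, 1354 and 877 CPM in SAL, a log2 fold change of 0.50 (standard error 0.09, edgeR's adjusted p = 0.00122). FADS2, a desaturase of polyunsaturated fatty acids, rose by 0.56 on the log2 scale (standard error 0.09). FADS1, its neighbour on chromosome 11, had 0.20 (edgeR's adjusted p = 0.141). SCD5, with 8 to 50 counts per DMSO library, was too low for its change of -0.30 (standard error 0.31) to be told from 0. LPIN1, which makes diacylglycerol for glycerolipids, rose by 0.38 on the log2 scale, from 107, 170 and 222 CPM to 139, 228 and 279 CPM. The calls of SCD, FADS2 and LPIN1 were lost on leaving out replicate 3 (edgeR's adjusted p = 0.0905, adjusted p = 0.107 and adjusted p = 0.184).

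Per kilobase of exon, the most abundant members in DMSO were ELOVL5 with a level of 243 ± 30.5 CPM per kb (SD, n = 3), FASN with 158 ± 114, SCD with 119 ± 71.4, INSIG1 with 93.2 ± 6.43, ACLY with 83.4 ± 55.8 and FDFT1 with 82.4 ± 15.6. The spread of FASN, SCD and ACLY between replicates covers their distance to their neighbours in this order. In SAL the levels of ELOVL5 and FASN were 650 ± 156 and 349 ± 277 CPM per kb. The lowest levels in DMSO were 0.375 CPM per kb for ABCA1, 0.796 for SCD5, 1.92 for ACACB and 2.02 for MVK. Together the 41 members took 0.537%, 1.14% and 0.917% of the counts without rRNA in replicates 1, 2 and 3 with DMSO, and 0.987%, 1.76% and 1.43% with SAL.

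The sterol and fatty acid branches were set against each other as lists, without a test, since genes are not replicates. In the sterol branch 9 of 17 genes rose and none fell, and the log2 fold changes ran from -0.20 to 1.24 around a median of 0.35. In the fatty acid branch 10 of 15 genes rose and 2 fell, with values from -0.75 to 1.75 around a median of 0.52. The difference of the medians, sterol minus fatty acid, was -0.17, and within the pairs it was -0.26, 0.10 and -0.08, so its sign was not the same in the 3 pairs, and its size was below the SD of 0.18 between pairs. Without replicate 1 the difference was 0.021, with 12 sterol genes risen, and without replicate 3, 5 genes of each branch rose. Over all genes tested, 2443 of 16735 rose without replicate 1 and 750 of 16992 without replicate 3. The genes that fell, ELOVL6 and ACACB, were both of the fatty acid branch, and this difference in counts was not tested. The sterol branch took a similar share of the counts without rRNA in each replicate, from 0.135% to 0.143% in DMSO and from 0.208% to 0.227% in SAL. The share of the fatty acid branch differed more by replicate, from 0.312% to 0.805% in DMSO and from 0.653% to 1.33% in SAL.

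**Figure D4:**
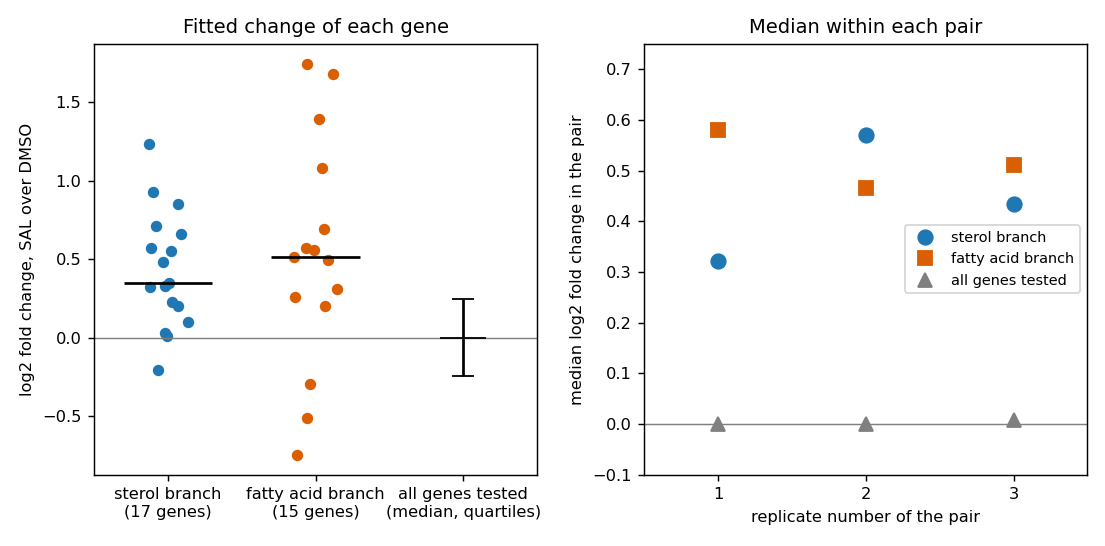
Left, fitted log2 fold change of SAL over DMSO (y axis) for the 17 sterol and 15 fatty acid genes, with a line at each median (0.35 and 0.52), beside the median and quartiles of all 16835 genes tested. Right, the median log2 fold change (y axis) within each same-numbered pair (x axis), where the fatty acid branch is higher in pairs 1 and 3 and the sterol branch in pair 2.

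Other genes of lipid metabolism, from a wider list of 72 gene symbols in the files, changed less as a whole. Of the 65 tested, 13 rose (20.0%, against 11.5% of all genes) and 8 fell (12.3%, against 9.37%), with a median log2 fold change of 0.05. By function, 5 of 11 further genes of sterol and isoprenoid synthesis rose and 2 fell, whereas of 9 genes of SREBP processing none rose and 2 fell. Of 17 further genes of fatty acid synthesis and elongation 2 rose, of 13 genes of glycerolipid synthesis 3 rose and 1 fell, and of 15 genes of sterol uptake and movement 3 rose and 3 fell. VLDLR, a lipoprotein receptor, rose by 1.01 on the log2 scale, from 8.30, 16.4 and 20.0 CPM to 19.6, 31.9 and 37 CPM. All 3 pairs rose, while the groups overlapped.

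The genes of the wider list with the largest falls also handle sterol. ABCG1, an efflux pump like ABCA1, fell by 0.77 on the log2 scale (standard error 0.18, edgeR's adjusted p = 0.00678), from 5.82, 42.5 and 21.5 CPM to 5.63, 22.1 and 10.8 CPM. Its log2 difference was -0.045 in pair 1 against -0.93 and -0.97 in the other pairs. NCEH1, a hydrolase of cholesteryl esters, fell by 0.76 (standard error 0.11), and LRP8, a lipoprotein receptor, fell by 0.63 (standard error 0.11), each in all 3 pairs. ABCG1 and LRP8 did not pass the threshold without replicate 3 (edgeR's adjusted p = 0.172 and adjusted p = 0.0651), nor did ABCG1 without replicate 2 (adjusted p = 0.0934).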

How the data were processed

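RNA of C4-2 cells was sequenced in 6 libraries. The authors trimmed the reads, aligned read 1 alone against hg19 by tophat 2.1.0 and assigned it to exons of gencode v19 by htseq-count 0.11.2, ignoring strand. They deposited raw counts per gene symbol. From these counts, 523 rRNA gene symbols were removed by a symbol pattern. The study also removed rRNA genes, but whether its set was the same was not checked. Low genes were removed with filterByExpr, which left 16835 genes. Counts were scaled by TMM and compared with edgeR 4.0.16 (quasi-likelihood test, robust, limma 3.58.1, R 4.3.3), with the replicate number as a block, after the paired test of the study's methods. Deviations from the group means correlated between same-numbered libraries at 0.89, 0.86 and 0.74. Correlations between differently numbered libraries were not computed, so the pairing rests on the numbers and on the paired test of the study's methods. The study performed the experiments independently.

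Log2 differences within pairs use a prior count of 2, and standard errors are the log2 fold change over the square root of F. GC content, exon length and positions come from GRCh37 with GENCODE v44, newer than the authors' annotation. Of 55765 symbols, 33529 matched a current and 1926 an older symbol. On simulated counts the median fitted change was close to each planted change, but not every planted gene was called. Unchanged genes made up more of the calls than the threshold states, so the calls, not only those near it, are less certain than it states.

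The members and lists were chosen with earlier results of these data known. Values in every library are given for the regulators, HMGCS1, SQLE, FASN and SCD, and for up to 4 called members per role with the largest changes. ACACB, ME1, FADS2 and members below the threshold are described outside this rule. Of the wider list, up to 3 called genes in each direction are named, and not every gene that this rule takes is reported here. The alternatives were no replicate block, DESeq2 1.42.0 with the block, DESeq2 size factors, no filter, a minimum of 10 counts per library, inclusion of the rRNA genes, each replicate number left out, a log2 fold change of at least 0.5 and, added after the data had been seen, a GC content and length correction. The number of libraries limits the precision.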

Additional observations from a re-analysis of the deposited data

How the results depend on the processing

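The counts of genes with an adjusted p under 0.05 depended most on the replicate block. With no replicate block, no gene rose or fell among the members (23 rose and 3 fell with it), in the sterol branch (9 and 0), in the fatty acid branch (10 and 2) or in the wider list (13 and 8), the counts being 0 each, while 6 members had an unadjusted p under 0.05 and 21 genes of all passed. The medians moved little under it, to 0.36 for the sterol and 0.50 for the fatty acid branch. With DESeq2 and the replicate block, 20 members rose and 1 fell, 1 gene of the fatty acid branch fell, and 4 genes of the wider list fell. Over all genes, 1290 of 16835 rose and 2240 passed in either direction by DESeq2. Leaving out each replicate number in turn, the members that rose numbered from 13 to 27 and those that fell from 1 to 3. In the sterol branch from 5 to 12 genes rose, and in the fatty acid branch from 5 to 11 rose and from 1 to 2 fell. In the wider list from 6 to 15 rose and from 1 to 9 fell. The counts over all genes tested moved as well. Without replicates 1, 2 and 3 in turn, 2443 of 16735, 1572 of 17267 and 750 of 16992 genes rose, against 1931 of 16835 with all replicates. In either direction, 4398, 2939 and 1233 genes passed, against 3508 with all replicates. The median log2 fold change of the members ran from 0.33 to 0.47, that of the sterol branch from 0.29 to 0.49, and the difference of the branch medians from -0.25 to 0.021. Each such fit has 4 libraries in place of 6, and the cause of these differences was not tested.

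A few members with changes near 0 changed sign. Leaving out each replicate number, DHCR7 ran from -0.017 to 0.19, MVK from -0.011 to 0.045 and PMVK from -0.24 to 0.16, each lowest without replicate 2. PMVK was at -0.0082 with DESeq2 and the replicate block and at -0.11 with the GC content and length correction, under which MVK was at -0.044 and SREBF2 at -0.014. DESeq2 size factors, the stricter filter, rRNA genes kept and the GC content and length correction each left 23 members risen and 3 fallen, and no filter gave 24 and 3. Over all genes, in the same order, 1864 of 16835, 1717 of 13999, 1928 of 16913, 1993 of 16835 and 2296 of 34388 rose. In either direction, 3459, 3134, 3506, 3978 and 3960 passed.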
